A study of Mus musculus with 3 samples.

Results

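The transcripts described here are the expressed members of one annotation class, the nonsense-mediated decay (NMD) transcripts of mouse genes. A transcript was included when GENCODE M21 types it as nonsense_mediated_decay and its mean TPM (a level divided by transcript length and scaled to a fixed total) over 3 libraries was at least 0.5 in the transcript tables with RSEM's column layout. The rule found 774 transcripts of 7186 annotated NMD transcripts and of 141862 annotated transcripts of all types. They belong to 678 parent genes. Since measured TPM chose the members, their levels are a description and carry no test.

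RNA came from the cytosolic fraction of C57BL/6J bone-marrow-derived macrophages, phagocytes grown from marrow cells, and was sequenced as total RNA after ribosomal RNA had been depleted. All cells had received 100 ng/ml lipid A, the part of bacterial lipopolysaccharide that activates the receptor TLR4, for 120 min. The series has 1 group of 3 libraries (replicates 1, 2 and 3) and no untreated cells, so no response to lipid A can be read from these values. One donor identifier covers all replicates in the labels, and separate animals are not stated. An SD here therefore measures the spread of these 3 samples, some or all of which may be technical. Every library had at least 1 TPM of each of 10 macrophage marker genes (means from 14.5 to 4039 TPM). Of 23 markers of other blood and stromal cells, Cd4 (mean 18.2 TPM) and S100a8 (8.32 TPM) reached that level, and in bulk RNA a few cells of another type cannot be told apart from low expression in all cells. Expected counts per library were 31152786, 114031592 and 59693298, of which 0.872%, 0.822% and 0.851% fell on the members. Malat1, a nuclear noncoding RNA, stood at 741, 178 and 812 TPM, so replicate 2 had the lowest level of this nuclear transcript.

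NMD is a cytoplasmic surveillance pathway that is coupled to translation. When a ribosome stops well before the last exon junction, the junction complex left by splicing stays on the RNA downstream of it, and factors such as UPF1 mark the RNA for destruction. Many genes produce such transcripts through an alternative exon that carries a stop codon, often called a poison exon, and several families of splicing regulators limit their own protein in this way. The annotation assigns the type from the position of the stop codon. It does not show that a transcript is degraded, and a steady-state level does not separate slow decay from high production.

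The sequences shown here, for some of the members, are short coding stretches that end at the annotated stop codon. They need not be unique to the transcript. They were read from the GENCODE M21 transcript sequences (mm10), are written 5′ to 3′ in lower case, and have the stop codon in capitals. Every length given for a stretch counts the stop codon. The first set shows exons of splicing regulators that overlap no exon of any coding transcript of the gene, in members of the SR family and of Rbm39. SR proteins bind exons and recruit the spliceosome, and Rbm39 is a related splicing cofactor. The exon of Srsf3-201 lies at chr17:29039454-29039909 on the plus strand, that of Tra2b-206 at chr16:22258986-22259261 on the minus strand, and that of Srsf4-204 at chr4:131884295-131884482 on the plus strand. The exon of Rbm39-225 lies at chr2:156178880-156178952 and that of Rbm39-223 at chr2:156174097-156174168, both on the minus strand. The stretch shown starts at the exon's first base for Srsf3-201, Tra2b-206 and both Rbm39 transcripts, and ends within the exon, so what follows the stop is not shown. For Srsf4-204, whose annotated start is incomplete, it is the last 90 coding bases.
Srsf3-201: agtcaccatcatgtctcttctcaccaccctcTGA
Tra2b-206: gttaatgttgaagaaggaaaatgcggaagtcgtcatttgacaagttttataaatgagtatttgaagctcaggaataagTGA
Srsf4-204: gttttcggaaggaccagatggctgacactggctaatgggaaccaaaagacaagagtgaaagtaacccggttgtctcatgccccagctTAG
Rbm39-225: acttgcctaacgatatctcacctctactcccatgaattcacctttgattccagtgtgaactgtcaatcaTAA
Rbm39-223: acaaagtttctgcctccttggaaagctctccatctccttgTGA
Counted through the last base of the stop codon, the reading frame covers 34 bases of the Srsf3 exon, 81 of the Tra2b exon and 72 of the 73-base exon of Rbm39-225.

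The second set comes from immune and lysosomal genes, which are shown because these genes act in the immune and lysosomal functions of macrophages. Gbp5 is an interferon-induced GTPase, Gpnmb a glycoprotein of lysosomes, Tyrobp the signalling adaptor DAP12 of myeloid receptors, Cd40 a receptor of the TNF receptor family and Rgs1 a brake on G-protein signalling. The exon with the stop is at chr3:142518120-142519059 (plus strand) for Gbp5-202, chr6:49042269-49042364 (plus) for Gpnmb-202, chr7:30415008-30415074 (plus) for Tyrobp-203, chr2:165069629-165069848 (plus) for Cd40-207 and chr1:144248479-144248608 (minus) for Rgs1-204. In Gbp5, Gpnmb and Tyrobp it overlaps no exon of a coding transcript, whereas in Cd40 and Rgs1 it is a longer or shifted form of one. For Gbp5-202 and Cd40-207 the last 90 coding bases are given. In Rgs1-204 the last 4 of the 30 bases shown lie in the shifted exon.
Gbp5-202: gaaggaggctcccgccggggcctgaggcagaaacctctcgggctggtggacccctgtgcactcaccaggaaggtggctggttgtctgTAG
Gpnmb-202: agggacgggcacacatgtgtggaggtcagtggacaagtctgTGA
Tyrobp-203: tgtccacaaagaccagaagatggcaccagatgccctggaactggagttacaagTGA
Cd40-207: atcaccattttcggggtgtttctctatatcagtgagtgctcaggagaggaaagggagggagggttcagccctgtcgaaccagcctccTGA
Rgs1-204: aagcagaaaaaaaggccaaagactttaTAA

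The third set adds genes of other roles, with the stop in an extra exon or inside coding bases. Ostf1 encodes an SH3-domain adaptor, Ube2d3 a ubiquitin-conjugating enzyme, Atp5f1 a subunit of the mitochondrial ATP synthase and Sdhaf2 an assembly factor of succinate dehydrogenase. Their stops lie in exons that no coding transcript has, at chr19:18598913-18598989 (minus), chr3:135456601-135456644 (plus), chr3:105957870-105958036 (minus) and chr19:10520949-10521058 (minus). Ppia-201 instead stops inside an exon that is coding in other transcripts of the gene, at chr11:6418226-6418314 (plus). Its last 30 coding bases are shown, and the last 90 of Atp5f1-203 and Sdhaf2-206.
Ostf1-205: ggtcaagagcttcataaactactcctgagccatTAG
Ube2d3-214: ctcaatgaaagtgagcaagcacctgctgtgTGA
Atp5f1-203: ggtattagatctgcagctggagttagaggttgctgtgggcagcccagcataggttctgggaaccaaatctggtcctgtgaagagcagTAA
Sdhaf2-206: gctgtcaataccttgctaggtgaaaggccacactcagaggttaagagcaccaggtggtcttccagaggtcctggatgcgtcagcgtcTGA
Ppia-201: caaagacagcagaaaactttcgagctcTGA

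Most members were low, and a few were among the main transcripts of abundant genes. Mean TPM ran from 0.5 to 187 with a median of 1.28. In all, 473 members reached 1 TPM, 116 reached 5 TPM and 49 reached 10 TPM. Of the 774, 597 were at 0.5 TPM or more in each library and 15 were at 0 in at least 1 library. The lower bound of the deposited credibility interval was at or above 0.5 TPM in every library for 417. The coefficient of variation of TPM over the libraries had a median of 0.226, against 0.135 for protein-coding and 0.412 for retained-intron transcripts that passed the same TPM threshold.

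Members took 1.47%, 1.41% and 1.42% of the TPM of nuclear protein-coding genes (all protein-coding genes outside the mitochondrial genome) in replicates 1, 2 and 3 (mean 1.43% ± 0.0307, SD, n = 3). Retained-intron transcripts over the same threshold took 2.94%, 2.78% and 2.95%. Replicate 2 had the lowest share of both kinds. The parent genes held 1 member in 596 cases, 2 in 72, 3 in 8 and 5 in the remaining 2, Tmem234 and Rbm39. All but 1 of the members lie in genes typed as protein-coding.

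The highest member was Ppia-201, a transcript of the gene for cyclophilin A, a prolyl isomerase, at 174, 208 and 179 TPM in replicates 1, 2 and 3. It exceeded the gene's highest coding transcript, which averaged 113 ± 8.59 TPM (SD, n = 3). The libraries agreed closely for this transcript, with replicate 2 highest. Rgs1-204 stood at 146, 87.7 and 91.4 TPM, with replicate 1 apart from the other libraries. The coding transcript Rgs1-208 averaged 6.94 ± 2.17 TPM. Rgs1-204, with the shifted exon, took 60.7 ± 3.54% of the gene's TPM (SD, n = 3), and other transcripts took the rest. Ppia and the ribosomal protein genes have many processed pseudogenes of near-identical sequence, which leaves their levels uncertain.

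**Figure D1:**
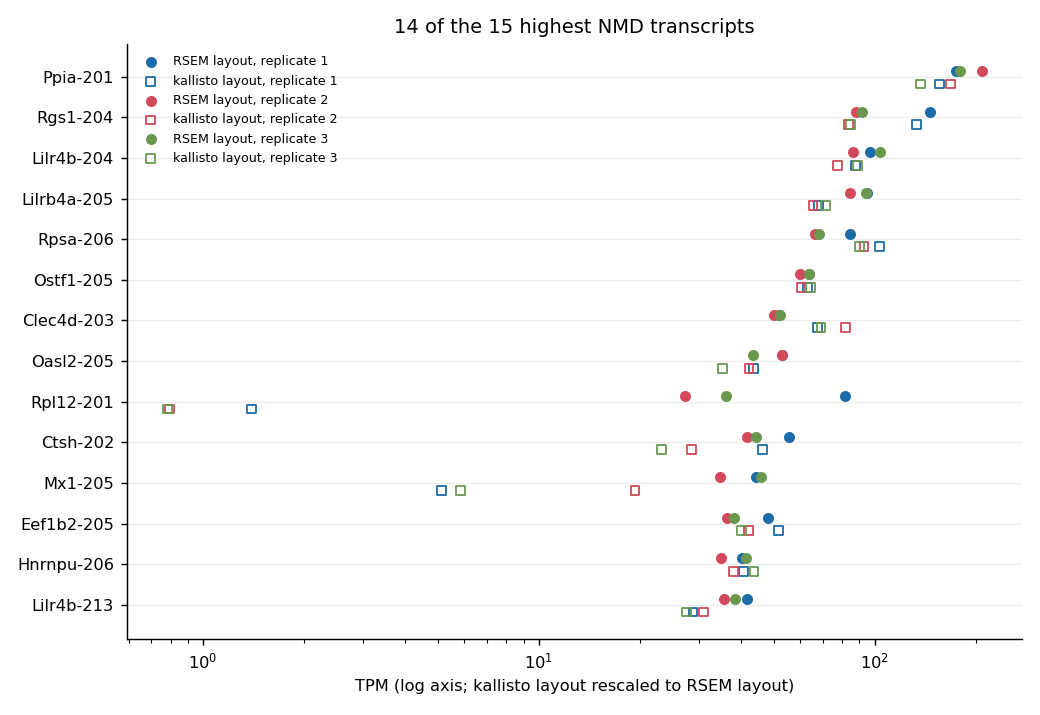
TPM of 14 of the 15 highest NMD transcripts in each library (log axis), in the RSEM layout (filled circles) and the kallisto layout rescaled to it (open squares), with 1 colour per replicate. Ppia-201 leads at 174 to 208 TPM, the layouts overlap or lie close for most transcripts, and Rpl12-201 and Mx1-205 are far lower in the kallisto layout.

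Leukocyte receptors followed. Lilr4b-204 stood at 96.8, 85.9 and 104 TPM, and Lilrb4a-205 at 94.5, 84.4 and 94.3 TPM. Lilr4b and Lilrb4a are near-identical neighbours on chromosome 10 that encode immunoglobulin-like receptors, so the division of reads between them is uncertain. Lilr4b-213, with an additional 41.6, 35.6 and 38.3 TPM, shares this limit. Clec4d-203, from a C-type lectin receptor gene, stood at 52.0, 50.3 and 52.2 TPM beside a coding transcript at 254 ± 9.19 TPM. Ostf1-205 was equally steady at 63.6, 59.7 and 63.9 TPM, and here the transcript with the extra 77-base exon shown above exceeded the coding one at 30.1 ± 3.23 TPM. Ostf1-205 has 77 bases that no other transcript of its gene has, which is the whole of that exon.

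Isoform percent, the share of a gene's TPM that a transcript takes, showed how far members were minor products of their genes. Its median over members was 14.6, 15.6 and 13.7% in replicates 1, 2 and 3, and the quartiles of the members' means were 6.30 and 28.4%. A total of 153 members took under 5% and 25 under 1%, while 73 took over 50% and 9 over 90%. Summed over the members of a gene, NMD transcripts took over 50% of the gene's TPM in 89 genes and under 10% in 228. The SD of isoform percent over the libraries had a median of 2.45 percentage points.

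In 107 members (13.8%) the NMD transcript was the highest of its gene in every library. Among all 18644 transcripts at or above the threshold that both layouts list, 49.5% were the highest of their gene. By the mean, 166 members exceeded the highest coding transcript of the gene, a count that includes the 8 members whose gene has no coding transcript. In the kallisto layout, 77 of the 107 were again the highest in every library. Besides Ppia, Rgs1 and Ostf1 they include Hnrnpu-206, from the gene of the nuclear RNA-binding protein hnRNP U, at 40.3, 34.9 and 41.3 TPM. It took 77.6, 80.1 and 79.6% of its gene, its stop lies in exon 14 of 17, and the annotation tags it as a readthrough transcript.

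Members at the top of the isoform percent scale were mostly gene models without a coding alternative. Among the 10 highest with at least 20 counts, Gm21985-201, Gm21988-201, Gm20716-201, Gm20605-201, Gm28043-201 and Gm20458-201 took 100% of genes for which no coding transcript is annotated. Their levels were low, from 0.527 to 5.56 TPM in the mean, and Gm20458-201 was at 0, 0.67 and 0.91 TPM. The annotation tags 14 members as readthrough transcripts, which join the exons of neighbouring genes, and 11 of these were over 50%. The other 4 of the 10 were Gm45140-202, Evi2-201, Hyi-202 and Colec12-201. Hyi-202 took 92.2, 98.3 and 86.2% of a gene for a hydroxypyruvate isomerase while its coding transcript was listed at 0. Colec12-201, from a scavenger receptor gene, took 88.9 ± 1.31% (SD, n = 3) beside a coding transcript at 0.383 ± 0.0839 TPM.

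**Figure D2:**
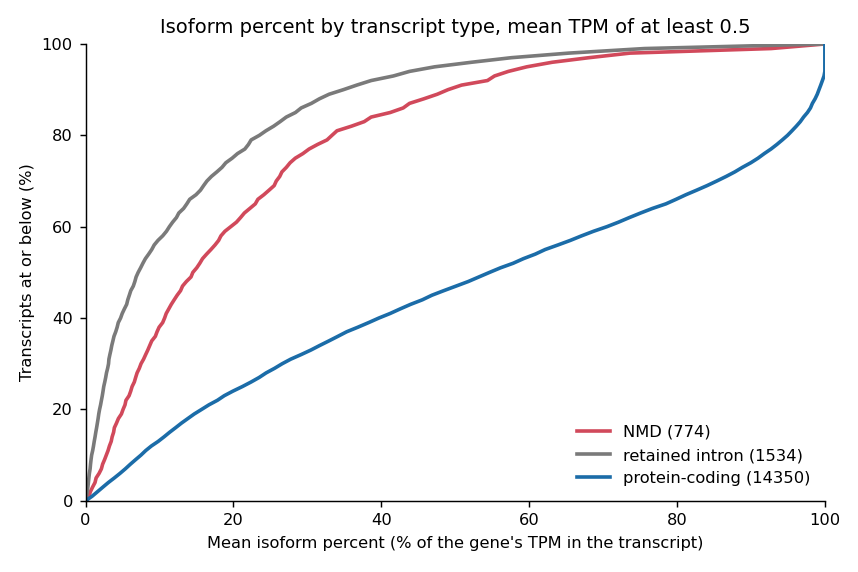
Cumulative share of transcripts (vertical axis, %) by mean isoform percent (horizontal axis, % of the gene's TPM) for NMD, retained-intron and protein-coding transcripts with mean TPM of at least 0.5. The NMD curve lies between the retained-intron and protein-coding curves, with a median of 14.5%.

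Other transcript types at the same threshold were compared within each library, to ask how large a part of their genes members take. The median isoform percent of 1534 retained-intron transcripts was 7.24, 5.60 and 7.93%, and that of 14350 protein-coding transcripts 54.7, 55.1 and 53.8%. Within libraries, the median of members exceeded that of retained-intron transcripts by 7.33, 10.02 and 5.82 percentage points (mean 7.72, SD 2.13, higher in 3 of 3 libraries). It lay below that of protein-coding transcripts by a mean of 39.9 percentage points (SD 0.317, lower in 3 of 3). A TPM threshold was applied to each type alike, and TPM enters isoform percent, so these medians describe transcripts that passed it and no others, with no test.

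The place of the stop relative to coding exons was examined next, since the TPM rule did not use it. In 452 members (58.4%) the stop codon lies inside bases that are coding in another transcript of the gene and that the coding transcript reads through. In 142 (18.3%) it lies in an exon that overlaps no exon of a coding transcript, and in 92 (11.9%) in a longer or shifted form of such an exon. In 71 (9.17%) it is also the stop of a coding transcript. A further 9 stop in an exon part that coding transcripts leave untranslated, and 8 have no coding transcript to compare.

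Annotated NMD transcripts below the threshold in expressed genes, 4105 in number, had a similar makeup. Of these, 59.1% stop inside coding bases, 21.1% in an extra exon, 12.6% in a longer or shifted exon and 5.38% at the stop of a coding transcript. The last share was 9.17% in members. Transcripts without a coding transcript to compare made up 1.03% of members and 0.049% of those below the threshold. Nothing is read from this contrast, because the choice of the sets fixes it in part. A transcript that holds all of its gene's TPM cannot be below 0.5 TPM while the gene counts as expressed. No test was made, since transcripts of one gene share exons and are not independent.

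**Figure D3:**
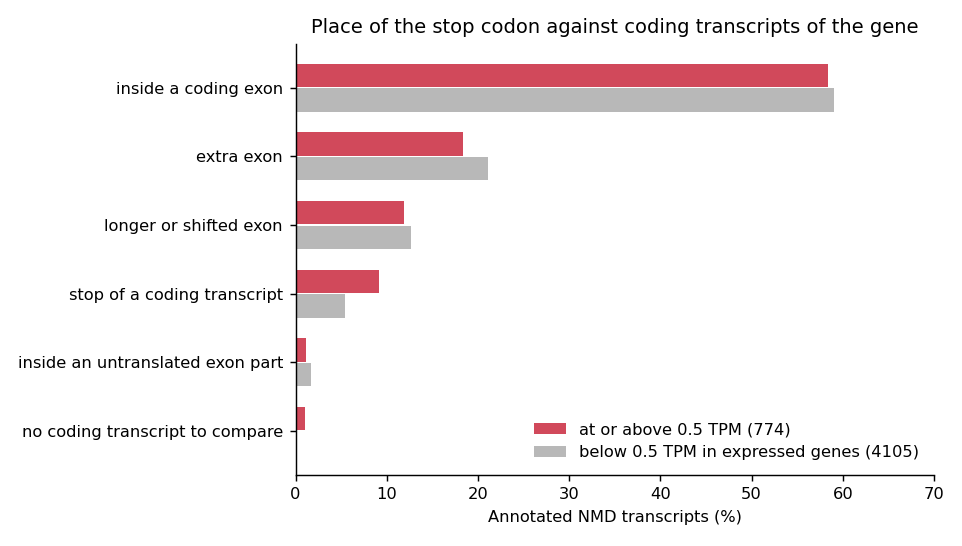
Share of annotated NMD transcripts (horizontal axis, %) by the place of their stop codon relative to coding transcripts of the same gene, for the 774 members and for 4105 NMD transcripts below 0.5 TPM in expressed genes. Stops inside a coding exon make up 58.4 and 59.1%, and extra exons 18.3 and 21.1%.

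The 142 members with such a stop use 139 distinct exons in 132 genes, of 33 to 940 bases with a median of 107. A length divisible by 3 was found for 50 of them (36.0%). Median isoform percent was 9.41% for members with an extra exon and 9.44% with a longer or shifted exon. It was 15.9% where the stop fell inside coding bases and 19.4% where it was also a coding stop.

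The annotation's type rests on the distance from the stop to the last exon junction, which had a median of 375.5 bases in members and ranged from 29 to 12430. Only Xaf1-201 and Huwe1-212, at 29 and 30 bases, lay within the 50 bases that the usual rule of thumb allows. Xaf1, an interferon-induced regulator of apoptosis, had 10.8, 7.28 and 7.22 TPM on this transcript. The stop codon was TGA in 53.7%, TAA in 24.8% and TAG in 21.4% of members. Among coding transcripts over the threshold the shares were 51.3, 26.2 and 22.4%.

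How well a transcript can be told from the others of its gene depends on sequence that it alone has. At least 1 base that no other transcript of the gene has was found in 281 members (36.3%), and a junction of their own but no base in 378 (48.8%). The remaining 115 (14.9%) had neither, so only combinations of exons distinguish them. Transcript support level 1, the best level of the annotation, was given to 38.2% of members and to 24.8% of the NMD transcripts below the threshold. The start is marked as incomplete in 217 members.

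Genes of the translation machinery held some of the highest members. Of 20 expressed ribosomal protein genes that have an annotated NMD transcript, 11 held a member. Over all such expressed coding genes, 677 of 2954 (22.9%) held one, and nothing is read from this contrast because the rule chose on it. The list counts below are also out of expressed genes with an annotated NMD transcript, and the same share and limit apply to them. Rpsa-206, from the gene of a small-subunit protein that also serves as a laminin receptor, stood at 84.5, 66.6 and 68.0 TPM and took 63.8, 57.0 and 58.2% of its gene. The other ribosomal members were smaller parts of their genes, with a median of 7.50% over the 14. Rpl13a-205 varied most among those named, at 68.0, 15.7 and 18.0 TPM, with replicate 1 apart. Rpl13a-216, from the same gene, stood at 34.1, 29.7 and 23.4 TPM.

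Among translation factors, 5 of 10 genes held 8 members. Eef1b2-205, from a subunit of the elongation factor that recharges eEF1A with GTP, stood at 48.2, 36.3 and 38.1 TPM, 44.2, 44.2 and 48.0% of its gene. Eif4a2-210, from the gene of an RNA helicase of the cap-binding complex, took 47.4, 43.9 and 41.4% beside a coding transcript at 1.57 ± 0.370 TPM. Eif4g1-222, from the scaffold of that complex, stood at 3.42, 3.61 and 3.41 TPM, and was lower in the kallisto layout described further on, at a mean of 1.25 ± 0.299 TPM (SD, n = 3). Among the factors of the decay pathway itself, 6 expressed genes have an annotated NMD transcript and none held a member at this threshold. Over all such expressed coding genes the share was 22.9%, and with so few genes nothing is read from this.

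Splicing regulators held the largest number of members of the 10 lists, 38 in 27 of 55 genes, but mostly as small parts of their genes. Their median isoform percent was 6.22%, against 14.5% over all members, and 14 of the 38 stop in an extra exon, against 142 of 774 over all. Both figures are descriptions of a list chosen with results of these data known. Isoform percent ranged from 0.526% to the 79.1% of Hnrnpu-206. By TPM, transcripts of the RNA helicase gene Ddx5 ranked next after Hnrnpu-206, Ddx5-208 at 13.4, 5.44 and 14.1 TPM and Ddx5-205 at 3.27, 10.8 and 13.6 TPM. Replicate 2 was lowest for the former and replicate 1 for the latter. Hnrnpd-208, from the gene of the AU-rich element binder AUF1, took 27.9, 33.3 and 35.2% of its gene.

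All 6 members from genes of the SR family and its relatives Tra2a and Tra2b are given, named after their values were seen. Srsf2-204 was the highest at 5.38, 6.37 and 6.43 TPM, 20.0, 29.0 and 23.4% of its gene, and its stop is also that of a coding transcript. Srsf3-201, with the exon shown above, stood at 3.22, 1.54 and 2.06 TPM, and Tra2b-206 at 1.39, 1.05 and 1.10 TPM. Tra2a-202 was at 1.85, 0.30 and 0.60 TPM, so it passed the rule through replicate 1. Srsf4-204 stood at 0.99, 0.73 and 0.76 TPM and Srsf6-201 at 0.89, 0.45 and 0.68 TPM. Replicate 1 was the highest in all of them except Srsf2-204, where it was the lowest.

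Rbm39 held 5 members between 0.677 and 2.48 TPM in the mean, and 4 of them share the stop in the 73-base exon printed as Rbm39-225. Added together they depend on how reads over that exon were divided, since Rbm39-225 and Rbm39-212 have neither a base nor a junction of their own. Tmem234, the gene of a transmembrane protein, held the same number of members between 0.66 and 3.58 TPM. Its largest, Tmem234-210, took 21.9, 15.1 and 12.7% of the gene.

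In the list of TLR4 signalling and inflammatory genes, 8 of 17 genes held 10 members with a median isoform percent of 2.76%. Nfkb1-207, from the gene of the NF-κB subunit p105/p50, stood at 9.48, 9.32 and 10.4 TPM, 12.3, 12.1 and 11.2% of its gene. Cxcl16-202, from a chemokine gene, stood at 11.4, 9.68 and 7.96 TPM, and Cd40-207 at 8.93, 8.35 and 9.72 TPM. The libraries lay close together for Nfkb1 and Cd40. Malt1-211, from the gene of a protease that relays signals to NF-κB, was at 5.22, 1.85 and 3.64 TPM. Tnfaip2-209 took 0.43, 0.46 and 0.47% of a gene whose coding transcript averaged 562 ± 47.6 TPM, so it passed the TPM threshold at 2.76, 3.23 and 4.08 TPM as a very small part of an abundant RNA.

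Interferon-response genes held 15 members in 13 of 18 genes, with a median of 6.43%. Oasl2-205, from a gene of the oligoadenylate synthetase family, stood at 52.9, 52.8 and 43.4 TPM and took 48.8, 57.2 and 49.5%. Mx1-205, from the gene of an antiviral GTPase, stood at 44.2, 34.6 and 45.9 TPM, and Mx1-210 and Mx1-203 added means of 6.05 and 3.69 TPM. Gbp5-202, which carries the 940-base exon shown above in part, was at 20.2, 14.8 and 20.7 TPM beside a coding transcript at 118 ± 11.0 TPM. Replicate 2 was the lowest for all of these Mx1 and Gbp5 transcripts in the RSEM layout. In the kallisto layout it was the highest for Mx1-205, at 5.12, 19.3 and 5.84 TPM. Rsad2-202, chosen with its values known, took 0.99, 0.18 and 1.02% of the gene of the antiviral enzyme viperin and had 8.4, 1.88 and 7.39 TPM beside a coding transcript at 857 ± 151 TPM.

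Macrophage and lysosome genes held 10 members in 9 of 15 genes and had the lowest median isoform percent of the lists with members, 0.529%. Ftl1-202, from the ferritin light chain gene, took 0.48, 0.47 and 0.44% of a gene whose coding transcript averaged 5641 ± 295 TPM, and still stood at 28.4, 25.5 and 24.8 TPM. Gpnmb-202 took 0.64, 0.38 and 0.58% and Tyrobp-203 0.49, 0.55 and 0.53% of their genes. These 3 transcripts show how an absolute TPM rule admits rare products of abundant genes. Ctsh-202, from the gene of the lysosomal protease cathepsin H, differed from them at 47.6, 43.7 and 43.8% of its gene. Fcgr1-202, from the gene of the high-affinity IgG receptor, took 24.6, 8.13 and 19.0%, with replicate 2 apart from the others. In the kallisto layout it took 40.0 ± 3.50% (SD, n = 3).

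In the proteasome and ubiquitin list, 9 of 25 genes held 10 members. Ube2d3-214 stood at 13.3, 21.6 and 17.3 TPM, 10.8, 20.6 and 15.9% of its gene, and was the highest in replicate 2. Psmd13-211, from a lid subunit of the proteasome, took 33.3, 35.3 and 31.7%. The respiratory-chain list had a median of 21.9% over 10 members in 8 of 20 genes. Atp5f1-203 stood at 14.5, 17.1 and 15.3 TPM, level with a coding transcript at 15.7 ± 0.552 TPM. Ndufs4-202, from a subunit of complex I, took 56.5, 56.4 and 59.9%, and Sdhaf2-206 took 59.3, 51.3 and 57.6%. All 10 respiratory-chain members were within 2-fold between the layouts, against 70.3% of all members and 84.7% of all transcripts over the threshold.

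The stress-response list held 3 members in 2 of 4 genes. Hspa5-204, from the gene of the endoplasmic reticulum chaperone BiP, stood at 37.6, 32.5 and 39.2 TPM, 16.1, 17.2 and 18.1% of its gene. Its coding transcript averaged 152 ± 19.8 TPM. Both other members came from Nupr1, the gene of a stress-induced chromatin protein, at means of 2.92 and 0.98 TPM.

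Outside these lists, some members with high isoform percent come from genes known in macrophages or in growth control, and were chosen with their values known. Il4ra-205, from the gene of the interleukin-4 receptor chain, has its stop in an extra exon of 114 bases and stood at 25.5, 17.5 and 21.3 TPM, 43.7, 32.0 and 40.9% of its gene. Mmp12-204, from the macrophage elastase gene, stood at 19.3, 19.0 and 15.8 TPM and exceeded the coding transcript at 13.8 ± 1.01 TPM. Arid5a-205, from the gene of an RNA-binding protein that stabilises inflammatory mRNAs, took 35.7, 35.9 and 37.1% of its gene. Its isoform percent had an SD of 0.741 percentage points, small beside the median of 2.45 over members.

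Regulators of growth were present as well. Brd2-207, from the gene of a bromodomain protein that binds acetylated histones, stood at 13.9, 18.3 and 19.1 TPM, 17.1, 22.6 and 20.6% of its gene. Odc1-205, from the gene of ornithine decarboxylase, the first enzyme of polyamine synthesis, was at 7.48, 14.3 and 16.2 TPM, with replicate 1 lowest. Mdm2-209, from the gene of the ubiquitin ligase of p53, stood at 9.56, 8.03 and 11.3 TPM, but at 1.68 ± 0.529 TPM in the kallisto layout, so its level depends on the layout.

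The kallisto-layout tables give a second estimate of the same transcripts, made from the reads rather than from their alignments, per the listing deposited with the libraries. The TPM total of nuclear protein-coding genes differed between the layouts, so kallisto TPM was multiplied by 2.28, 2.30 and 3.38 in replicates 1, 2 and 3 to make these totals equal. All 774 members are listed there. Of these, 647 (83.6%) also reached a mean of 0.5 TPM, against 91.9% of all transcripts over the threshold. Within 2-fold of each other were 544 members (70.3%), against 84.7% of all transcripts. The difference between these shares was not tested, since transcripts of a gene share reads. Another 324 NMD transcripts reached 0.5 TPM only in the kallisto layout, which gave 971 in all.

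**Figure D4:**
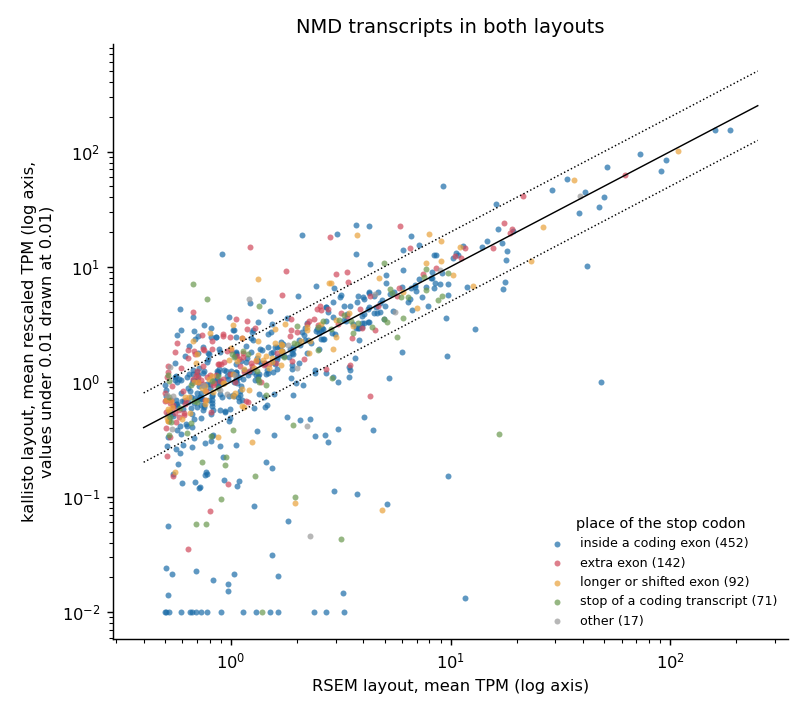
Mean TPM of each member in the RSEM layout (horizontal) and the kallisto layout (vertical, rescaled), both on log axes, coloured by the place of the stop codon. The solid line marks equality and the dotted lines 2-fold, within which 544 of 774 members fall, and 33 members lie under 0.05 TPM on the vertical axis.

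Because members were chosen for their RSEM TPM, values that are low in the kallisto layout alone are favoured in this comparison. The log2 ratio of kallisto to RSEM TPM (with 0.1 added to each) had a median of 0.07, a 10th percentile of -1.74 and a 90th percentile of 1.13. The share within 2-fold was 64.5% of members between 0.5 and 1 TPM, 72.0% between 1 and 5 and 80.2% from 5 TPM. Protein-coding transcripts had 83.6, 89.4 and 94.3% in the same bands and retained-intron transcripts 73.9, 72.3 and 69.7%. Spearman's rho between the layouts was 0.69 across the 774 members, 0.67 across retained-intron and 0.92 across protein-coding transcripts. These are descriptions across transcripts that share libraries and genes and that were all chosen on one of the measures.

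The shares were also taken by the kind of own sequence. Members with bases of their own reached 0.5 TPM in kallisto in 90.4% of cases, those with only a junction of their own in 77.8% and those with neither in 86.1%. Within 2-fold the order was different, with 71.9, 65.6 and 81.7%. Members with the stop in an extra exon were seen in 93.7%, and their median log2 ratio of 0.37 was above that of all members. Where the stop fell inside coding bases, 80.8% were seen.

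The members' median ratio minus that of retained-intron transcripts was -0.04, 0.02 and 0.00 on the log2 scale in the 3 libraries (mean -0.005, SD 0.0307). It exceeded that of protein-coding transcripts by 0.14, 0.13 and 0.10 (mean 0.12, SD 0.0215). The ratio holds the RSEM TPM that chose the transcripts, so these are descriptions with no test. The sign of the first comparison turned without replicate 1 or without replicate 3, to 0.04 and 0.001. The sign of the second turned when means over transcripts replaced medians, to -0.04.

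For some members the layouts gave wholly different levels. Among members at 2 TPM or more, Myof-205, from the gene of the membrane-repair protein myoferlin, was at 11.6 ± 2.37 TPM in the RSEM layout against 0.0133 ± 0.0230 in the kallisto layout. Gusb-206, from the gene of lysosomal beta-glucuronidase, was at 16.6 ± 2.54 against 0.352 ± 0.319 TPM. Nfkb1-207 was at 9.73 ± 0.577 against 0.152 ± 0.161, and Piezo1-204, from a mechanosensitive channel gene, at 3.27 ± 1.22 against 0 in every library. None of these 4 has a base of its own, and all but Gusb-206 have 1 junction of their own.

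Rpl12-201, from a gene of the large ribosomal subunit, was the fifth, at 81.7, 27.2 and 36.2 TPM against 1.39, 0.794 and 0.783 TPM. In the kallisto layout it still took 47.4 ± 9.52% of its gene, so the whole gene was low there. The RSEM values also differed about 3-fold between the libraries. This member's level is therefore uncertain by both measures.

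In the other direction, Ddx5-205 was at 9.21 ± 5.34 TPM in the RSEM layout against 49.7 ± 6.89, and Asah1-202, from the gene of acid ceramidase, at 2.09 ± 1.14 against 18.9 ± 7.70 TPM. Selenok-203, Man2b1-203 and Mx1-203 were at means of 2.81, 3.04 and 3.69 TPM against 18.2, 19.2 and 23.2 TPM. Srsf6-201 took 5.38% of its gene in the RSEM layout and 46.5 ± 9.55% in the kallisto layout. Mx1-210, Rsad2-202 and Tra2b-206 were also more than 2-fold higher in the kallisto layout, at means of 14.0, 22.3 and 2.90 TPM, and Tra2a-202 stood at 2.49 ± 1.66 TPM there. Several members described above were nearly equal in both, with Ostf1-205 at 62.4 ± 2.34 and 62.6 ± 2.07 TPM and Hnrnpu-206 at 38.9 ± 3.43 and 40.8 ± 2.84 TPM.

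Replicate 2, the library with the lowest Malat1 and the greatest depth, showed little shift in the members. Their median log2 ratio of TPM in replicate 2 to the mean of replicates 1 and 3 was -0.17 on the deposited TPM and -0.07 after rescaling to the nuclear protein-coding genes. After the same rescaling it was -0.43 for retained-intron transcripts and -0.03 for protein-coding ones. In the kallisto layout the values were -0.16, -0.76 and -0.13. There TPM was scaled to each library's own RSEM total of nuclear protein-coding genes, 234843, 210928 and 220269 TPM in replicates 1, 2 and 3. Those values therefore keep the differences between these totals, as the -0.17 on deposited TPM does, and are not on the scale of the rescaled RSEM values. In both layouts the shift of the members lay closer to that of protein-coding than of retained-intron transcripts.

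**Figure D5:**
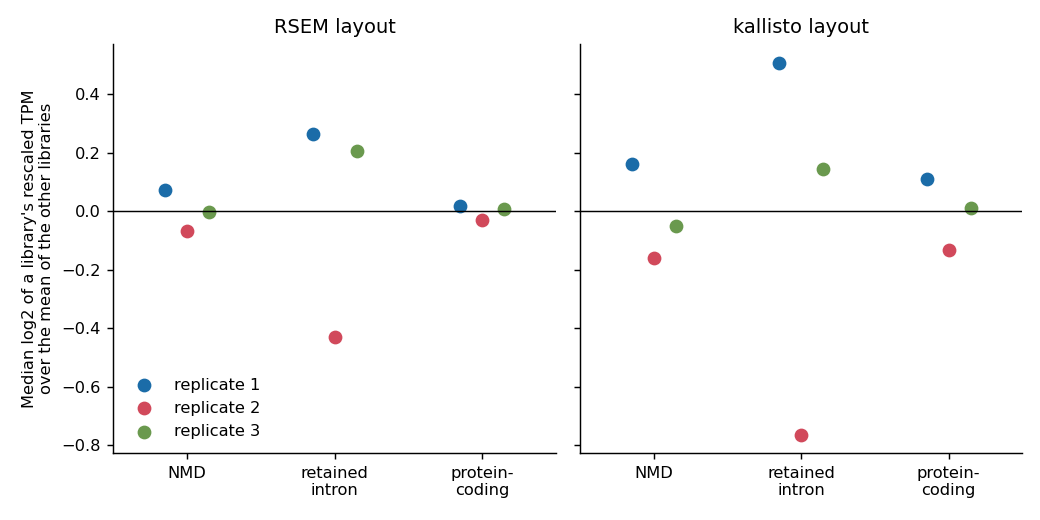
Median log2 ratio of rescaled TPM in each library to the mean of the other libraries (vertical axis), by transcript type, in the RSEM layout (left) and the kallisto layout (right). The RSEM layout was rescaled to a total common to the libraries, the kallisto layout only to each library's own RSEM total. NMD medians lie between -0.16 and 0.16 in both layouts, while retained-intron transcripts in replicate 2 lie at -0.43 and -0.76.

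The rescaled TPM was lowest in replicate 2 for 303 members (39.1%), against 38.9% of all transcripts. Isoform percent was lowest in replicate 2 for 247 of 767 members with a varying value (32.2%), for 57.1% of retained-intron transcripts and for 26.3% of protein-coding ones, against 29.9% of all transcripts. It was highest there for 33.8% of members, against 36.7% of all. The median difference of replicate 2 from the others was 0.10 percentage points for members and -0.93 for retained-intron transcripts. In the 183 genes that hold both types, the median log2 ratio was -0.12 for 224 NMD transcripts and -0.96 for 312 retained-intron transcripts. The isoform percent was lowest in replicate 2 for 33.5 and 66.7% of them. No test of these differences over samples can be made, since they concern 1 library, and whether nuclear RNA entered the libraries to different degrees was not tested.

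Single members departed from this. Among those at 2 TPM or more, isoform percent in replicate 2 was lower than the mean of the others by the most in Nfam1-202 (35.0, 14.0 and 34.8%), Rpl12-201 (48.5, 21.6 and 29.0%), Pnpla2-201 (41.1, 19.8 and 27.1%), Sra1-203 (74.9, 57.8 and 69.3%) and Fcgr1-202. Nfam1 encodes an activating receptor of immune cells, Pnpla2 the fat triglyceride lipase ATGL and Sra1 a nuclear receptor coactivator. It was higher by the most in Pet100-206 (69.3, 84.4 and 63.0%), Mrpl32-201 (65.3, 85.9 and 77.9%), Lilrb4a-205, BC004004-207 and Gpi1-207. Pet100 assembles cytochrome c oxidase, Mrpl32 is a mitochondrial ribosomal protein and Gpi1 a glycolytic isomerase. In the kallisto layout Pnpla2-201 took 61.5 ± 1.27% (SD, n = 3), so the libraries lay close together there. With 1 value per library these are extremes of a list and carry no test.

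The threshold itself separated near-equal transcripts. Just inside it were Phf3-212 (0.50, 0.45 and 0.55 TPM), Wsb1-202 (0.66, 0.29 and 0.55 TPM) and Fbxo22-205 (0.54, 0.70 and 0.26 TPM), and just outside it Fzr1-201 (mean 0.497), Lsm11-201 (0.497) and Tk2-208 (0.493). Fbxo22-205 was at 0 in the kallisto layout, where Fzr1-201 stood at 1.62 TPM.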

How the data were processed

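Cytosolic RNA, depleted of ribosomal RNA, was sequenced in 3 libraries of 1 group. Per the labels, each started from 1 µg and covered sizes of 250 to 400 bp. The authors deposited, per the file headers, expected counts (model estimates that need not be whole), TPM, isoform percent, posterior mean TPM and TPM credibility bounds (treated as signal) per transcript in RSEM's layout, and estimated counts and TPM in kallisto's layout. The aligner and tool versions, and whether reads were stranded, were not given in the sources used here, so overlapping and antisense genes cannot be told apart with certainty. TPM keeps no depth, which was taken from expected counts.

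Types, coordinates and sequences came from GENCODE M21 (mm10). Isoform percent was recomputed from transcript TPM. A gene was called expressed at a mean of 0.5 TPM. Kallisto TPM was rescaled to the RSEM total of nuclear protein-coding genes. Stop codons were compared with the exons of coding transcripts of the same gene. Classes were compared within libraries. The exact sign-flip permutation test planned for this cannot go below p = 0.25 with 3 libraries, and the compared values include the TPM that chose the transcripts, so no p is given. Computation used Python 3.11.15, numpy 2.4.6 and pandas 2.3.3, and was tested on simulated data.

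Members and lists were chosen with earlier results of these data known, and 4 list entries that did not belong were removed afterwards. Transcripts named were the 15 highest, the 10 highest by isoform percent with at least 20 counts, up to 5 per list, the 5 most different each way between layouts and in replicate 2 at 2 TPM or more, 3 on each side of the threshold and the members of genes with the most members. One of the 15 highest is not reported here. Others are marked as named after their values were seen. Alternatives were other thresholds, posterior means, the kallisto layout, leaving out a library, other pseudocounts and folds, and means.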

Additional observations from a re-analysis of the deposited data

How the results depend on the processing

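Of 100 alternatives to the main results, 72 left them within the spread between libraries or within 1.5 times the count, 22 moved them and 6 turned a sign. Many of the 72 leave out a library and are judged by limits that such a change seldom exceeds. The count limit also passes 971 members in the kallisto layout against 774. The 72 are therefore no measure of stability. The number of members rose to 1188 at a threshold of 0.25 TPM and fell to 473, in 424 genes, at 1 TPM. The median isoform percent was then 10.6 and 19.8%, and it was 18.2% for transcripts at 0.5 TPM in every library, 13.5% with posterior mean TPM and 13.5% with members chosen and measured in the kallisto layout. The members' share of nuclear protein-coding-gene TPM was 1.496% at 0.25 TPM, 1.33% at 1 TPM, 1.37% with 0.5 TPM in every library, 1.01% of expected counts and 1.71% for the 971 transcripts both chosen and measured in the kallisto layout. The 774 members themselves took 1.52% there.

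At 1 TPM, 392 members were seen in the kallisto layout, 350 were within 2-fold and the median log2 ratio was 0.0205. With kallisto TPM as deposited, before rescaling, these became 416, 233 and -1.14. A pseudocount of 0.5 gave 0.0562, and leaving out a library gave 0.0545 to 0.0733. The difference between the layout ratios of members and retained-intron transcripts was 0.0079 at 1 TPM, 0.0169 with 1 transcript per gene, 0.043 without replicate 1, -0.0417 without replicate 2 and 0.001 without replicate 3, so its sign depends on the libraries and settings used. Against protein-coding transcripts it was -0.0368 with means. The isoform percent difference of replicate 2 was 0.32 percentage points at 1 TPM, and the TPM difference -0.0677 after rescaling. Of 1000 alternatives to values of single named members, 132 moved them by more than their SD, 126 of these in the kallisto layout. That layout was applied to each of the 200 named values. Leaving out a library cannot move a mean of 3 by more than its SD, so those alternatives could only count as unmoved. No paired analysis was possible because there is 1 group. Depth limits the members with few reads: 202 had a mean expected count under 100.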
